A study of Homo sapiens with 9 samples.

Results

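The genes described here are the AP-1 subunits FOS, FOSL1, FOSL2, JUN, JUNB and JUND and a group of early response genes, EGR1, ATF3, KLF6 and IER3. They were taken by gene symbol, 10 genes of the 17492 in the deposited table, and all 10 passed the filter on low counts, so each was tested. RNA came from wild-type HCCLM3 cells, a long-established line of human liver cancer (hepatocellular carcinoma) with a high capacity to metastasise. The cells received the solvent DMSO (control), quercetin at 50 µM or quercetin at 100 µM, with 3 samples in each group. Quercetin is a plant flavonol, and the series asks what different concentrations of it do to liver cancer cells. How long the cells were treated is not stated in the sources used. Only 1 cell line was studied. The labels do not tell whether the samples of a group were separate cultures, so the p-values reflect the spread among these samples alone, which may be technical.

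AP-1 is a dimer of basic leucine zipper proteins, formed by a JUN family protein with a FOS family, JUN family or ATF family partner, and it binds short palindromic sites in the control regions of genes for growth, invasion and stress. Immediate early genes are those that growth factors, serum or stress switch on without new protein synthesis, largely through the ERK, JNK and p38 kinases acting on factors such as serum response factor and ELK1. In liver, JUN is known for its part in regeneration and in liver tumours, and FOSL1 and FOSL2 are the stable FOS family members of many carcinoma cells.

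Promoter sequence is shown for 2 genes with different outcomes here, JUND, which rose at both doses, and EGR1, which did not pass the test in any comparison, and a short stretch is shown for KLF6. RefSeq promoters (GRCh38.p14) were matched for 8 of the 10 genes, not for FOSL1 and IER3, and 250 bases before each start were searched on both strands. The JUND stretch is chr19:18281623-18281872, minus strand, and its capitals mark the cyclic AMP response element TGACGTCA, 200 bases before the start, a site for dimers of ATF, CREB and JUN proteins. The EGR1 stretch is chr5:138465229-138465478, plus strand, and its capitals mark first GCGCGGGCG, a match to the EGR binding site GCGNGGGCG 198 bases before the start, then a pair of serum response elements (CArG boxes), CCATATTAGG at 105 and CCATATATGG at 83 bases. The KLF6 stretch is chr10:3785256-3785284, minus strand, with its EGR site match GCGGGGGCG, 65 bases before the start, in capitals.
JUND: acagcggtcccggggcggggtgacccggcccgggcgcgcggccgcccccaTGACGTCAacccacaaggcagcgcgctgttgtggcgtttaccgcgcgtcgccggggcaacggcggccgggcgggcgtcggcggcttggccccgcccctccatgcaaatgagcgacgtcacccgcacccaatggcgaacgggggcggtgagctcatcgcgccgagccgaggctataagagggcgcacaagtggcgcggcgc
EGR1: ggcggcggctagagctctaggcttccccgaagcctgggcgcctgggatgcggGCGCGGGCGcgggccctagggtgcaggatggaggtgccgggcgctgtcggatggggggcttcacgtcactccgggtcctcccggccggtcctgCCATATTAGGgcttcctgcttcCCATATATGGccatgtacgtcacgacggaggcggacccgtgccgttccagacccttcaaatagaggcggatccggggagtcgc
KLF6: ggggagccagGCGGGGGCGgagggggagg

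Of 35116 RefSeq promoter stretches of the same length, 1.65% held TGACGTCA, 1.16% a CArG box and 8.41% GCGNGGGCG. The AP-1 site TGANTCA stood in 6.57% of them and in 0 of the 8 genes matched. Neither TGANTCA nor TGACGTCA contains the other. These are matches of letters in a short window, and no binding was measured.

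The libraries held 20061031 to 21599661 estimated counts each, and 12832 genes were tested. Of the markers listed for the line, the keratin genes were high, with KRT8 at 4198 ± 359 TPM and KRT18 at 2070 ± 127 TPM in the control (mean ± SD, n = 3). TPM is the authors' level of transcripts scaled to library size and transcript length. The epithelial marker EPCAM was under 1 TPM in every sample, at 0.297 ± 0.0379 in the control. ALB, which marks mature hepatocytes, was at 1.19 ± 0.696 there, AFP at 4.82 ± 0.81, SERPINA1 at 0.917 ± 0.288 and APOB at 1.31 ± 0.0794. Among markers of other cell types, the blood and immune list summed to 185 to 257 TPM in the control, 164 to 181 at 50 µM and 254 to 378 at 100 µM, nearly all of it CD68, with 3 of 6 markers under 1 TPM in every sample. The endothelial list summed to 19.9 to 22.2, 10.2 to 11.9 and 10.7 to 14 TPM, mostly PECAM1, with 2 of 5 markers under 1 TPM in every sample. For fibroblasts the sums were 57.7 to 87.2, 66.2 to 73.5 and 63.6 to 110 TPM, mostly LUM, with 4 of 6 markers under 1 TPM everywhere. The samples are labelled as HCCLM3 cells alone, so these sums are given as gene levels and not as amounts of other cell types. The part of these markers in the results below was not tested. As to single libraries, control replicate 1 stood apart from controls 2 and 3 (chi-square per gene 27.7 and 27.5, against 3.57 between controls 2 and 3), and so did 100 µM replicate 3 from its group (84 and 86.2, against 5.04). For many of the results whose call or size changes when they are left out, the value without them stands beside the result.

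At 50 µM, JUND rose and FOSL1 and IER3 fell, and 7 of the 10 genes did not pass the test (edgeR's quasi-likelihood test, Benjamini-Hochberg adjusted p under 0.05 over all genes tested). Over all genes tested, 5.28% were called higher and 6.31% lower at this dose, 11.6% in all. At 100 µM, FOS, FOSL2, JUNB, JUND and ATF3 rose and FOSL1 fell, against 10.7% of all genes called higher and 10.3% lower, 21% in all. Between the doses, KLF6 and IER3 were higher at 100 µM, against 2.25% of all genes higher and 1.89% lower, 4.15% in all. None of the 10 was lower at 100 than at 50 µM: the count was 0 in edgeR, 0 in DESeq2 and 0 at an unadjusted edgeR p under 0.05. For 10 genes, a count of 0 is near the 1.89% of all genes called lower in edgeR. The median log2 fold change of the 10 genes was −0.025 at 50 µM, 0.41 at 100 µM and 0.44 between the doses, beside 0.0033, 0.00087 and 0.012 over all genes. With both libraries that stood apart left out, 3 of the 10 were higher and 4 lower at 50 µM, against 28.5% and 28.9% of all genes. In that fit 7 were higher and 1 lower at 100 µM, against 24.2% and 24.4%, and between the doses 7 were higher and 0 lower, against 24.6% and 22.7%. The comparisons of each dose with the control share their 3 control libraries, so their values stand side by side and are not independent. The comparison between the doses reuses the 3 libraries of each dose. A gene lower at 50 µM and higher at 100 than at 50 µM thus rests on the same libraries at 50 µM in both.

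**Figure D1:**
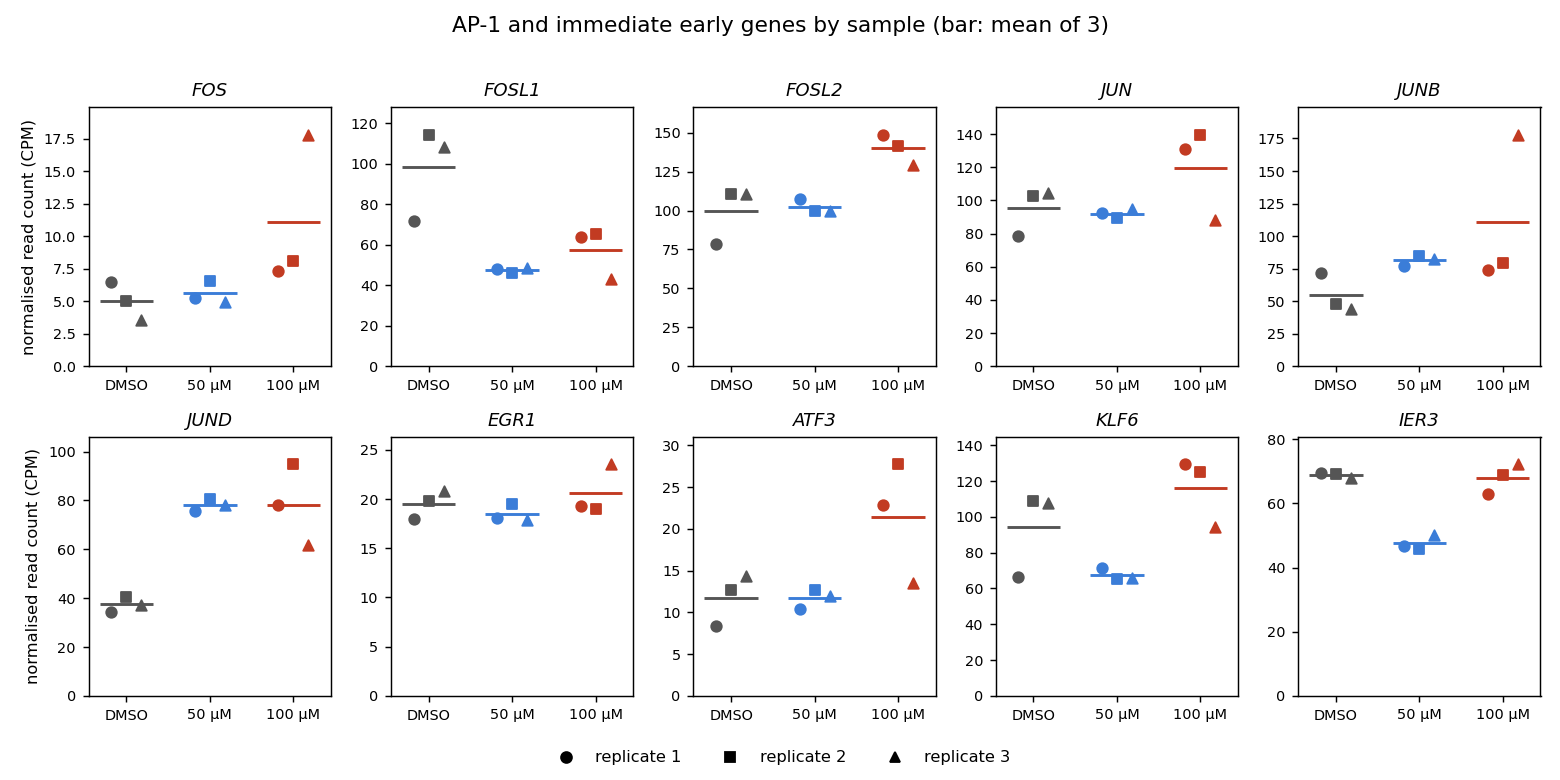
Normalised read counts (CPM, counts scaled to library size with TMM) of the 10 genes in each of the 9 samples, with 1 panel per gene, a marker shape per replicate number and a bar at the mean of 3. JUND sits between 34.5 and 40.6 CPM in the controls and at 61.9 CPM or more in all 6 treated samples, whereas EGR1 lies between 17.9 and 23.5 CPM throughout.

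**Figure D2:**
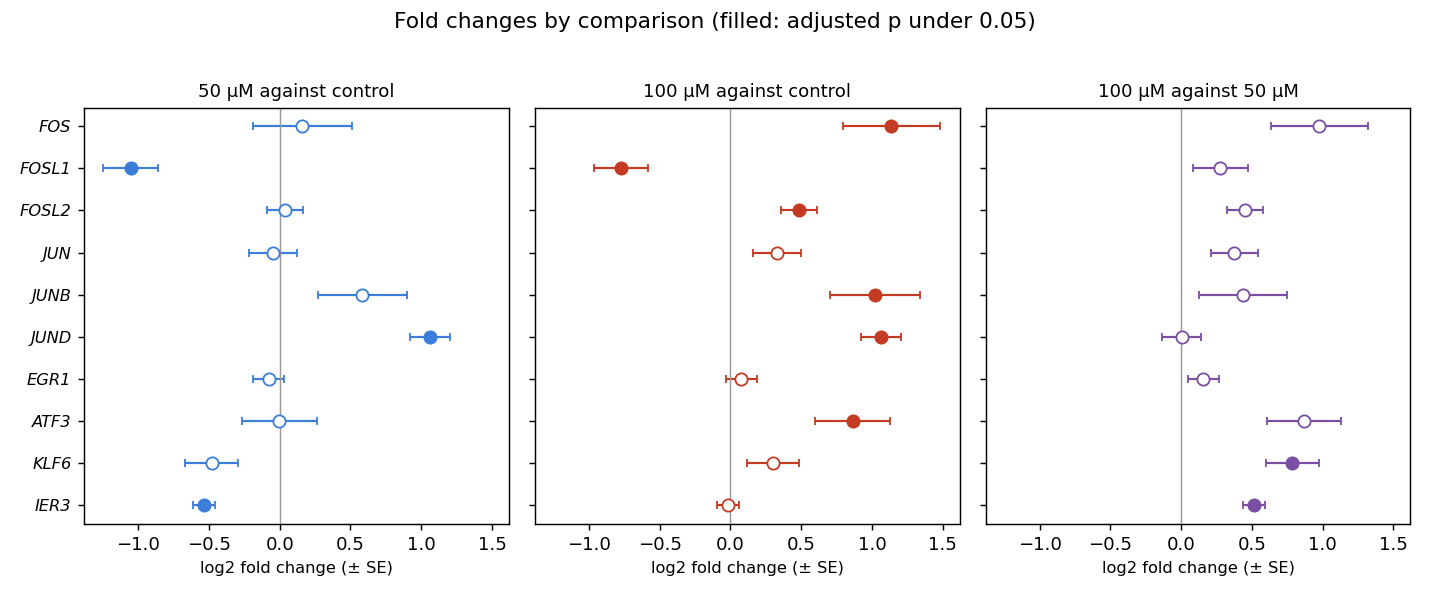
Log2 fold changes of the 10 genes (points, with bars of ± 1 standard error) in the 3 comparisons, filled where the edgeR adjusted p was under 0.05. At 50 µM only JUND, FOSL1 and IER3 are filled, and between the doses only KLF6 and IER3.

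FOSL1 encodes FRA-1, a FOS family subunit without the strong activation domain of FOS, and on the authors' TPM scale, which is corrected for transcript length, it was the FOS family gene with the highest level in every sample. FOSL1 (11:65892049-65900573, minus strand, positions from GENCODE 29 on GRCh38) stood at 71.9, 114 and 108 CPM in the 3 controls, at 48, 45.9 and 48.4 CPM at 50 µM, and at 63.7, 65.5 and 43.1 CPM at 100 µM. All 6 treated samples lay below all 3 controls, and control replicate 1 was the lowest of its group. At 50 µM it fell 2.07-fold (log2 fold change −1.05 ± 0.194 SE, edgeR adjusted p = 0.0152) and at 100 µM 1.71-fold (−0.77 ± 0.193, edgeR adjusted p = 0.0212). The difference between the doses was 0.28 ± 0.193, short of the threshold (edgeR adjusted p = 0.445). The call at 50 µM did not hold without control replicate 2 (edgeR adjusted p = 0.0778) or 3 (0.0805) and without 50 µM replicate 1 (0.0718), 2 (0.0627) or 3 (0.0809), and the call at 100 µM without control replicate 2 (0.0926) or 3 (0.0899). In those fits the calls over all genes fell too, to between 47 and 95 genes higher at 50 µM in place of 678. With both libraries that stood apart left out, FOSL1 was lower by −1.23 at 50 µM and −0.78 at 100 µM on the log2 scale, and the doses then differed by 0.46 (edgeR adjusted p = 8.82e-07).

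FOSL2 encodes FRA-2, the other FOS-related subunit, and it rose at 100 µM alone among the comparisons with the control. FOSL2 (2:28392448-28417312, plus strand) stood at 78.6, 111 and 110 CPM in the controls, at 108, 100 and 99.9 CPM at 50 µM, and at 149, 142 and 130 CPM at 100 µM. The 3 samples at 100 µM lay above all 6 others. It was 1.4-fold higher at 100 µM than in the control (0.49 ± 0.128, edgeR adjusted p = 0.026), while the difference at 50 µM was 0.038 ± 0.127 (edgeR adjusted p = 0.859). Between the doses the log2 difference of 0.45 ± 0.127 did not pass in edgeR (adjusted p = 0.0782), but DESeq2 gave an adjusted p of 0.0235, and the authors' deposited table gives q = 0.000525. The rise at 100 µM was lost in 6 of 19 other analyses, among them those without 100 µM replicate 1 (edgeR adjusted p = 0.067) or 2 (0.0605). The difference between the doses passed without control replicate 1 (0.0156) or 100 µM replicate 3 (0.0172). With both libraries that stood apart left out, it was 0.51 (edgeR adjusted p = 3.57e-08). An antisense gene and a gene within an intron overlap FOSL2, and whether the counting used strand is not stated in the sources used, so reads of the antisense gene cannot be told apart from its own.

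FOS, the founding member of the family and a classic transient early gene, had the lowest mean TPM of the 10 genes in each group. In 100 µM replicate 3, however, its 16.6 TPM lay above EGR1 (14.6) and ATF3 (13.4). FOS (14:75278774-75282230, plus strand) stood at 6.48, 4.99 and 3.56 CPM in the controls, at 5.28, 6.59 and 4.98 CPM at 50 µM, and at 7.35, 8.09 and 17.8 CPM at 100 µM. Every sample at 100 µM lay above every control, and replicate 3 of that dose stood far above its group's other samples. FOS rose 2.2-fold at 100 µM (1.14 ± 0.346, edgeR adjusted p = 0.0438), while the change at 50 µM was 0.16 ± 0.352 (edgeR adjusted p = 0.776) and the difference between the doses 0.98 ± 0.343 (edgeR adjusted p = 0.134), or 0.46 without 100 µM replicate 3 (edgeR adjusted p = 0.136). With both libraries that stood apart left out, FOS was higher than in the control by 0.39 at 50 µM (edgeR adjusted p = 0.041) and 0.85 at 100 µM (edgeR adjusted p = 0.000111), and the doses differed by 0.47 (edgeR adjusted p = 0.00861). Without 100 µM replicate 3 the log2 fold change was 0.63, still past the threshold (edgeR adjusted p = 0.0495). The rise at 100 µM was lost in 11 of 19 other analyses. Among them were those without control replicate 2 (edgeR adjusted p = 0.125) or 3 (0.153) or without 50 µM replicate 1 (0.0701), 2 (0.0673) or 3 (0.0695). FOSB, the remaining gene of the family, named here after its values were seen, stood at 0.959 to 1.41 CPM in the controls, 1.68 to 2.05 at 50 µM and 5.42, 4.51 and 1.73 at 100 µM. FOSB rose at 100 µM, with a log2 fold change of 1.68 ± 0.386 (edgeR adjusted p = 0.0159).

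The make-up of the FOS family transcripts differed between the control and the treated samples. On the TPM scale FOSL1 made up 74.1%, 78.2% and 78% of the summed level of the 4 family genes in the controls, 60.4%, 59.7% and 62.2% at 50 µM, and 58.8%, 60.2% and 47.8% at 100 µM. FOSL2 went the other way, with 20.1%, 18.6% and 19.5% in the controls, 33.3%, 32.4% and 31.6% at 50 µM, and 33.6%, 32% and 35.6% at 100 µM. No treated sample overlapped a control in either share, and control replicate 1 and 100 µM replicate 3 did not change that order. The summed level of the family was 129, 191 and 178 TPM in the controls and 99, 98.3 and 95.6 TPM at 50 µM, and at 100 µM it was 142, 138 and 105 TPM. These shares describe transcripts, not proteins, and carry no test.

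JUND encodes the JUN family subunit that is made steadily in resting cells, and it rose at both doses. JUND (19:18279760-18281622, minus strand) stood at 34.5, 40.6 and 37.1 CPM in the controls, at 75.5, 80.4 and 78.3 CPM at 50 µM, and at 78.3, 94.8 and 61.9 CPM at 100 µM. All 6 treated samples lay above all 3 controls, and 100 µM replicate 3 was the lowest of them. The rise was 2.09-fold at 50 µM (1.06 ± 0.141, edgeR adjusted p = 0.00509) and 2.09-fold at 100 µM (1.07 ± 0.141, edgeR adjusted p = 0.0015). Both calls held in 19 of 19 other analyses, with log2 fold changes of 0.99 to 1.13 at 50 µM and 0.91 to 1.22 at 100 µM. Between the doses the log2 difference was 0.0048 ± 0.138 (edgeR adjusted p = 0.987), and across the other analyses it took either sign.

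JUNB, which encodes a JUN family subunit that often restrains JUN, was higher at 100 µM, but the size rests on a single library. JUNB (19:12791496-12793315, plus strand) stood at 71.3, 47.6 and 44.2 CPM in the controls, at 76.9, 85 and 82.7 CPM at 50 µM, and at 74.3, 79.4 and 178 CPM at 100 µM. Every treated sample lay above every control, although control replicate 1 came close to the lowest treated sample, and 100 µM replicate 3 stood far above all others. The rise at 100 µM was 2.03-fold (1.02 ± 0.315, edgeR adjusted p = 0.0464). Without 100 µM replicate 3 it was 0.51 on the log2 scale and did not pass (edgeR adjusted p = 0.0605). The call was lost in 12 of 19 other analyses in all. Among them were those without control replicate 2 (edgeR adjusted p = 0.148) or 3 (0.159) or without 50 µM replicate 1 (0.0726), 2 (0.0748) or 3 (0.0748). At 50 µM the change of 0.58 ± 0.314 did not pass with all 9 libraries (edgeR adjusted p = 0.228), but it did without 100 µM replicate 3 (0.59, edgeR adjusted p = 0.0207), and the authors' deposited table gives q = 0.00183. Between the doses the difference was 0.44 ± 0.311 (edgeR adjusted p = 0.454), and it turned to −0.087 without 100 µM replicate 3. With both libraries that stood apart left out, JUNB was higher than in the control by 0.83 at 50 µM (edgeR adjusted p = 2.91e-11) and by 0.75 at 100 µM (edgeR adjusted p = 1.57e-09). HOOK2, a gene on the opposite strand that overlaps JUNB, stood at 4.32 to 7.39 CPM in the controls, 6.04 to 8.14 at 50 µM and 7.21 to 11.4 at 100 µM, and reads of the 2 genes in the shared stretch cannot be told apart where strand was not used.

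JUN, the subunit with the strongest transforming activity, did not pass the test in any comparison with all 9 libraries. JUN (1:58780788-58784327, minus strand) stood at 78.8, 103 and 105 CPM in the controls, at 92.4, 89.2 and 94.8 CPM at 50 µM, and at 131, 140 and 88.1 CPM at 100 µM. Replicates 1 and 2 at 100 µM lay above all other samples, while replicate 3 of that dose lay among the controls and below the samples at 50 µM. The log2 fold change was −0.048 ± 0.167 at 50 µM (edgeR adjusted p = 0.862), 0.33 ± 0.167 at 100 µM (edgeR adjusted p = 0.185) and 0.38 ± 0.167 between the doses (edgeR adjusted p = 0.224). Without 100 µM replicate 3, JUN passed at 100 µM both against the control (0.52, edgeR adjusted p = 0.00443) and against 50 µM (0.55, edgeR adjusted p = 0.00446). With control replicate 1 left out as well, it also passed at 50 µM, by −0.17 (edgeR adjusted p = 0.0158).

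The summed level of the 3 JUN family genes was 181, 172 and 162 TPM in the controls, 229, 249 and 237 TPM at 50 µM, and 265, 287 and 308 TPM at 100 µM. The 3 groups did not overlap. JUND made up 22.1%, 26.9% and 25.6% of that sum in the controls and 35.8%, 36.2% and 35.4% at 50 µM. At 100 µM its share was 33.6% and 36.4% in replicates 1 and 2 but 20.5% in replicate 3, where JUNB alone made up 62.3%. JUN made up 29.6%, 39.8% and 42.2% in the controls, 25.7%, 23.5% and 25.1% at 50 µM, and 32.9%, 31.4% and 17.1% at 100 µM. As parts of the same sum these shares move against each other, and no test was made of them.

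**Figure D3:**
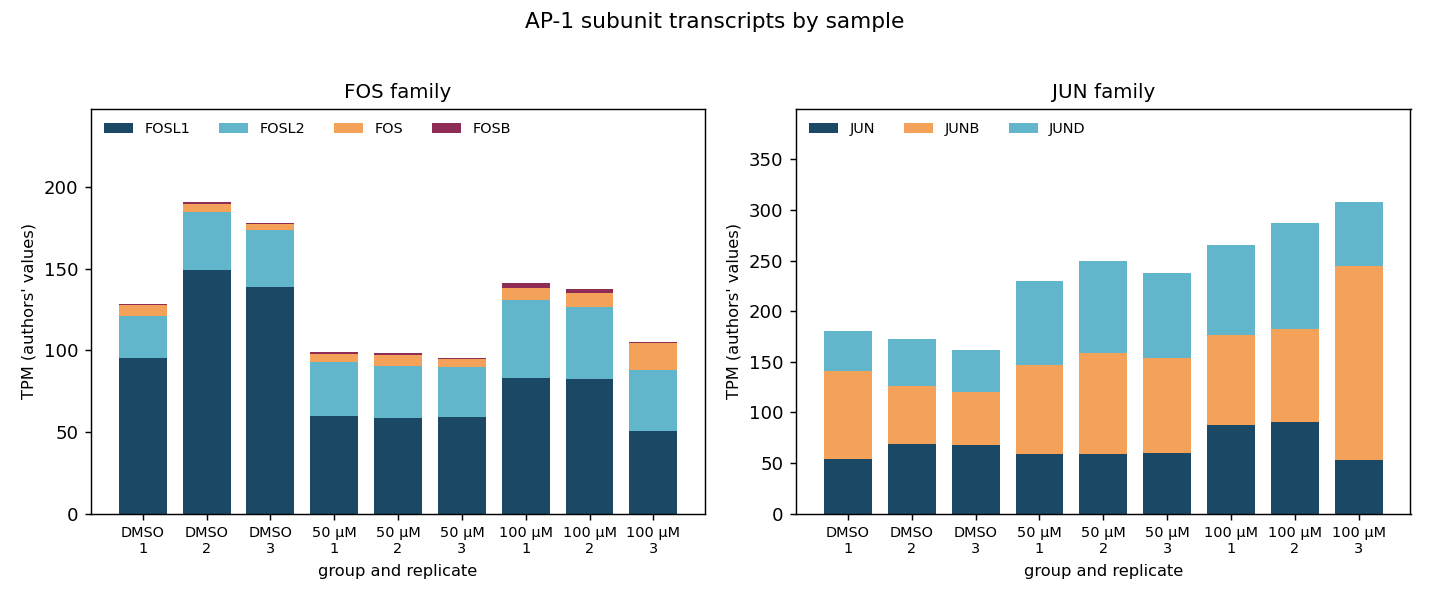
Stacked bars of the authors' TPM for the 4 FOS family genes and the 3 JUN family genes in each of the 9 samples. In the FOS family the FOSL1 part makes up 74.1% to 78.2% of the bar in the controls and 47.8% to 62.2% in the treated samples, and in the JUN family the tallest JUNB part is in 100 µM replicate 3.

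IER3, an early response gene whose product affects ERK signalling and cell survival, fell at 50 µM, while its samples at 100 µM overlapped the controls. IER3 (6:30743199-30744554, minus strand) stood at 69.6, 69.1 and 67.9 CPM in the controls, at 46.7, 45.9 and 50.2 CPM at 50 µM, and at 63, 68.9 and 72.2 CPM at 100 µM. The samples at 50 µM lay below all 6 others, and the highest of all samples was 100 µM replicate 3. The fall at 50 µM was 1.45-fold (−0.53 ± 0.0781, edgeR adjusted p = 0.00701), and it passed in 19 of 19 other analyses, with log2 fold changes of −0.59 to −0.50. At 100 µM the difference from the control was −0.017 ± 0.0775 (edgeR adjusted p = 0.892). IER3 was 1.43-fold higher at 100 than at 50 µM (0.51 ± 0.0781, edgeR adjusted p = 0.012), a call lost without 50 µM replicate 1 (0.076), 2 (0.0717) or 3 (0.0571). The antisense gene IER3-AS1 overlaps it, so its reads too cannot be told apart where strand was not used.

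KLF6, a zinc finger factor first known for activating genes in injured liver, was likewise lowest at 50 µM. KLF6 (10:3775996-3785281, minus strand) stood at 66.3, 109 and 108 CPM in the controls, at 71.2, 65.5 and 65.8 CPM at 50 µM, and at 129, 125 and 94.3 CPM at 100 µM. Control replicate 1 lay among the samples at 50 µM, and 100 µM replicate 3 lay below the other 2 controls. KLF6 was 1.72-fold higher at 100 than at 50 µM (0.78 ± 0.187, edgeR adjusted p = 0.0485), with no overlap of the groups. That call was lost in 12 of 19 other analyses, while the authors' deposited table gives q = 2.72e-05. Among the 12 were those without control replicate 2 (edgeR adjusted p = 0.0731) or 3 (0.0749) and without any single library at 50 µM (0.164, 0.167 and 0.179). Those without 100 µM replicate 1 (edgeR adjusted p = 0.137) or 2 (0.133) were also among them. Against the control the changes were −0.48 ± 0.186 at 50 µM (edgeR adjusted p = 0.113) and 0.30 ± 0.185 at 100 µM (edgeR adjusted p = 0.265). With both libraries that stood apart left out, the change at 100 µM was 0.24 and passed (edgeR adjusted p = 0.00259). Without control replicate 1 the log2 fold change at 50 µM was −0.68 and passed (edgeR adjusted p = 0.0103). It was −0.68 as well with both libraries left out (edgeR adjusted p = 1.28e-10). The authors' deposited table gives q = 0.0152 for the change at 50 µM with all libraries.

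ATF3, a stress-induced member of the ATF family that can pair with JUN proteins, rose at 100 µM by a narrow margin. ATF3 (1:212565334-212620777, plus strand) stood at 8.31, 12.6 and 14.3 CPM in the controls, at 10.4, 12.7 and 12 CPM at 50 µM, and at 22.9, 27.7 and 13.5 CPM at 100 µM. Replicates 1 and 2 at 100 µM lay above all other samples, and replicate 3 lay within the range of the controls. The rise was 1.82-fold (0.87 ± 0.265, edgeR adjusted p = 0.0446). It was lost in 14 of 19 other analyses, among them those without control replicate 1 (0.67, edgeR adjusted p = 0.0956), 2 (0.106) or 3 (0.0699), 50 µM replicate 1 (0.0694), 2 (0.0717) or 3 (0.0733), or 100 µM replicate 1 (0.0942) or 2 (0.13). Between the doses the difference of 0.87 ± 0.264 did not pass in edgeR with all libraries (adjusted p = 0.0937), but it did in DESeq2 (adjusted p = 0.0236) and without 100 µM replicate 3 (1.11, edgeR adjusted p = 0.00322). The authors' deposited table gives q = 0.0281 for it. At 50 µM the change was −0.0017 ± 0.268 (edgeR adjusted p = 0.997).

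EGR1, a zinc finger factor induced by ERK signalling through the serum response elements shown above, had overlapping levels in the 3 groups. EGR1 (5:138465490-138469315, plus strand) stood at 18, 19.8 and 20.9 CPM in the controls, at 18.1, 19.5 and 17.9 CPM at 50 µM, and at 19.3, 19 and 23.5 CPM at 100 µM. The group means were 19.5, 18.5 and 20.6 CPM, and the highest sample was 100 µM replicate 3. The log2 fold change was −0.079 ± 0.11 at 50 µM (edgeR adjusted p = 0.641), 0.077 ± 0.11 at 100 µM (edgeR adjusted p = 0.642) and 0.16 ± 0.11 between the doses (edgeR adjusted p = 0.449). It did not pass in any of 19 other analyses of any comparison.

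Groups that did not overlap were common in these data. At 50 µM, 4 of the 10 genes had no overlap with the control (JUNB and JUND above, FOSL1 and IER3 below), where 49% of all genes tested had none (24.4% above and 24.6% below). At 100 µM, 5 of 10 had none (FOS, FOSL2, JUNB and JUND above, FOSL1 below), against 35.9% of all genes (17.3% above and 18.6% below). Between the doses 5 of 10 had none, all higher at 100 µM (FOS, FOSL2, ATF3, KLF6 and IER3), against 13.3% of all genes higher without overlap, 14.4% lower, and 27.7% in all. Replicate 3 at 100 µM was the highest of its group for FOS, JUNB, EGR1 and IER3 and the lowest for the other 6 genes.

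The order of the levels within a group, on the TPM scale, also moved with treatment. In the control FOSL1 (128 ± 28.7 TPM, mean ± SD, n = 3) and IER3 (124 ± 3.93) led with overlapping samples, above JUNB (65.5 ± 19) and JUN (63.4 ± 8.58), then KLF6 (44.3 ± 10.9) and JUND (42.6 ± 3.3), FOSL2 (32.1 ± 5.43), EGR1 (13.5 ± 0.746) with ATF3 (13.2 ± 3.27), and FOS (5.24 ± 1.61). Each pair named together overlapped, and the other neighbours did not. At 50 µM JUNB (94.2 ± 6.07), JUND (85.4 ± 4.11) and IER3 (82.4 ± 2.55) led, each overlapping the next, above FOSL1 (59.3 ± 0.551) and JUN (59 ± 0.542), which overlapped. FOSL2 (31.7 ± 1.41) and KLF6 (30.6 ± 1.44) followed, then ATF3 (12.8 ± 1.44) and EGR1 (12.3 ± 0.839), and FOS was again the lowest (5.63 ± 0.987). At 100 µM JUNB (124 ± 58.3) and IER3 (117 ± 3.48) overlapped at the top, and JUND, JUN, FOSL1, KLF6 and FOSL2 (85.6 to 43 TPM) formed a chain of overlapping neighbours. ATF3 (23.2 ± 8.75), EGR1 (13.6 ± 0.949) and FOS (10.8 ± 5.04) came last and overlapped in turn.

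Among 30 tested genes listed as AP-1 targets, which encode proteases, matrix proteins and growth factors, 13 fell and 2 rose at 50 µM, with a median log2 fold change of −0.48, where 6.31% of all genes fell and 5.28% rose. The EGF receptor ligand gene EREG went from 244 ± 70.9 CPM in the control down to 62.5 ± 6.61, a 3.91-fold fall (edgeR adjusted p = 0.00286). AREG, a gene of the same ligand family, went from 45.2 ± 9.42 CPM down to 12.5 ± 0.909, a 3.6-fold fall (edgeR adjusted p = 0.0153). At 100 µM 5 of the 30 rose and 4 fell, with a median of −0.060, where 10.7% of all genes rose and 10.3% fell. EREG again fell, 3.7-fold, to 66.1 ± 12.2 CPM (edgeR adjusted p = 0.000864), and AREG stood at 23.4, 22.6 and 7.76 CPM. By contrast, the collagenase gene MMP1 rose 2.54-fold to 19.2 ± 10.2 CPM (edgeR adjusted p = 0.0377). The chemokine gene CXCL8 rose 2.55-fold to 17.1 ± 7.13 CPM (edgeR adjusted p = 0.0497). CXCL8 was at a like level at 50 µM, with 19.1, 15.6 and 19.3 CPM, against 12, 4.48 and 3.56 CPM in the controls.

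Between the doses 6 of the 30 targets were higher at 100 µM and 0 lower (0 in DESeq2 and 0 at an unadjusted edgeR p under 0.05). The median was 0.47. Over all genes 2.25% were higher and 1.89% lower, with a median of 0.012. For 30 genes, a count of 0 lower is near that share. LAMB3, which encodes a laminin chain of the basement membrane, was 2.5-fold higher (edgeR adjusted p = 0.0157), and PLAUR, the urokinase receptor gene, 2.07-fold (edgeR adjusted p = 0.012). The LAMB3 means were 37.3 ± 2.49 CPM at 50 µM, 93.5 ± 23.8 at 100 µM and 80.5 ± 20.4 without quercetin. The EREG calls held in 19 of 19 other analyses at either dose, while the MMP1 and CXCL8 calls at 100 µM were each lost without 8 of the 9 libraries in turn. The MMP1 call was kept only without 100 µM replicate 3 (edgeR adjusted p of 0.055 to 0.109 in the other 8), and the CXCL8 call only without control replicate 1 (0.0547 to 0.164 in the other 8). Without that control the log2 fold change of CXCL8 was 2.09 in place of 1.35 (edgeR adjusted p = 0.00388). The count of 13 targets lower at 50 µM was 3 without control replicate 2, 4 without control replicate 3, 3, 4 and 1 without 50 µM replicates 1, 2 and 3, and 17 without 100 µM replicate 3. The count of 6 higher at 100 than at 50 µM was 0, 1 and 1 without 50 µM replicates 1, 2 and 3. It was 16 without 100 µM replicate 3, where the 289 higher over all genes became 1823. Without both libraries that stood apart it was 17 of 30, where 24.6% of all genes were called higher. The AREG call at 50 µM did not hold without control replicate 2 (edgeR adjusted p = 0.0711) or 3 (0.0788) or any single library at 50 µM (0.0705, 0.0643 and 0.0831). Between the doses LAMB3 (0.083 to 0.0946) and PLAUR (0.0732 to 0.0799) were lost without any single library at 50 µM, and LAMB3 also without 100 µM replicate 1 (0.0518) or 2 (0.0544).

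**Figure D4:**
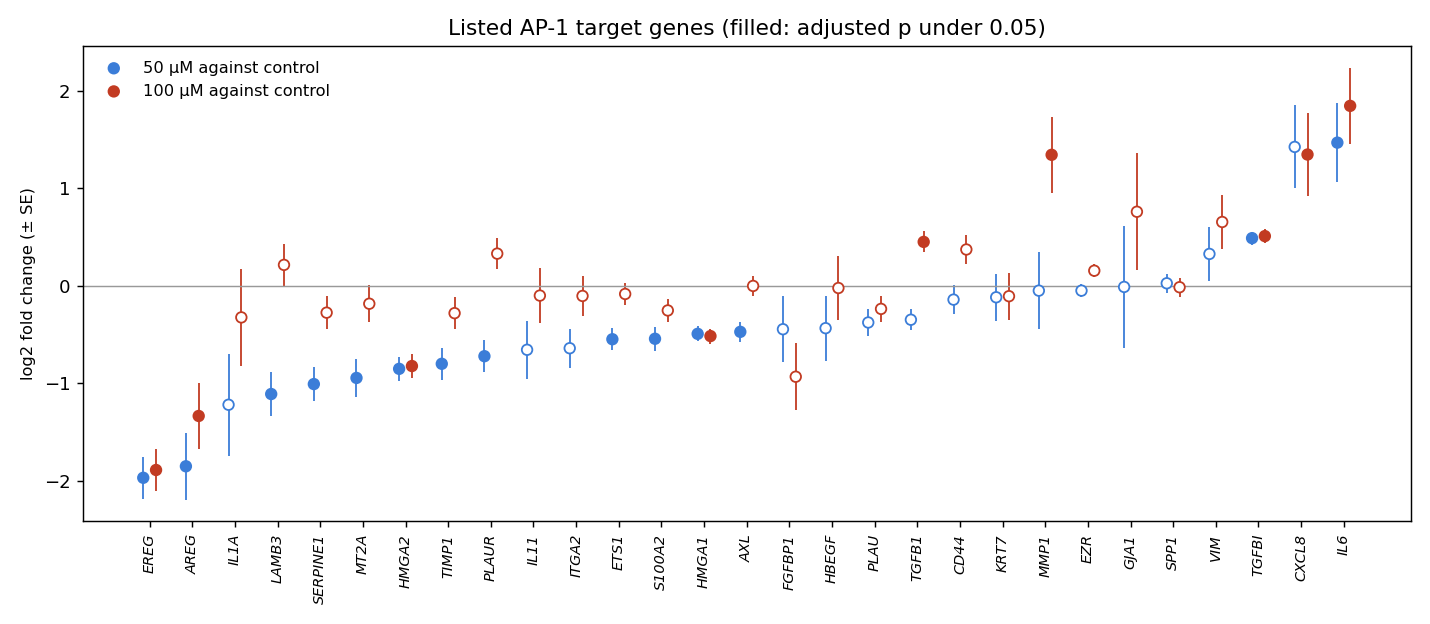
Log2 fold changes (points, with bars of ± 1 standard error) of 29 of the 30 tested AP-1 target genes for each dose against the control, filled where the edgeR adjusted p was under 0.05. EREG stands lowest at both doses, at −1.97 and −1.89, and MMP1 and CXCL8 are filled above 0 at 100 µM.

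Of 30 other immediate early genes tested, 1 rose and 3 fell at 50 µM (median −0.22), 6 rose and 1 fell at 100 µM (median 0.058), and 3 were higher and 0 lower at 100 than at 50 µM (median 0.33), with 0 lower in DESeq2 and at an unadjusted p under 0.05. Over all genes 11.6% were called at 50 µM, 21% at 100 µM and 4.15% between the doses. Between the doses 2.25% of all genes were higher and 1.89% lower, so 0 lower of 30 is near the share over all genes. The 3 lower at 50 µM became 0 without control replicate 2 or 3 or 50 µM replicate 1 or 3, 1 without 50 µM replicate 2, 6 without control replicate 1, 11 without 100 µM replicate 3 and 17 without both libraries that stood apart. The 3 higher between the doses became 0, 0 and 1 without 50 µM replicates 1, 2 and 3, and 1 without 100 µM replicate 1 or 2. They became 13 without 100 µM replicate 3 and 20 without both. Over all genes, 810 lower at 50 µM became 1437 without control replicate 1, 2357 without 100 µM replicate 3 and 3721 (28.9%) without both. The 289 higher between the doses became 1823 without 100 µM replicate 3 and 3176 (24.6%) without both. GADD45B, a growth arrest and stress gene, rose 2.35-fold at 100 µM, from 15.4 ± 2.67 to 36.1 ± 11.9 CPM (edgeR adjusted p = 0.0046). MAFF, a small MAF protein with a leucine zipper, rose 1.96-fold there, to 29.5 ± 2.51 CPM against 15.1 ± 2.5 in the control (edgeR adjusted p = 0.0019). NFKBIZ, an atypical IκB protein, rose 1.84-fold, to 27.3 ± 3.73 CPM against 14.8 ± 2.61 (edgeR adjusted p = 0.00316). These 3 calls held in 19 of 19 other analyses. At 50 µM the Krüppel-like factor genes KLF10 and KLF4 fell 1.47-fold (edgeR adjusted p = 0.00982) and 1.35-fold (edgeR adjusted p = 0.0112), and IER5L rose 1.91-fold (edgeR adjusted p = 0.0209). The KLF4 call (edgeR adjusted p of 0.0542 to 0.0711) and the IER5L call (0.0739 to 0.101) were lost without control replicate 2 or 3 or any single library at 50 µM, and that of KLF10 (0.0548 to 0.066) without each of those except 50 µM replicate 2. Between the doses MAFF was 1.94-fold (edgeR adjusted p = 0.00907) and KLF4 1.36-fold (edgeR adjusted p = 0.0144) higher at 100 µM. MAFF was lost there without 50 µM replicate 1 (0.0633) or 2 (0.055), and KLF4 without any single library at 50 µM (0.0807 to 0.097) or 100 µM replicate 1 (0.0523) or 2 (0.0528).

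Of 16 genes of ERK output and feedback, 2 fell at 50 µM, the phosphatase gene DUSP5 (1.65-fold, edgeR adjusted p = 0.0484) and SPRED1, an inhibitor of RAF activation (1.32-fold, edgeR adjusted p = 0.0131). At 100 µM SPRED1 alone of them fell (1.25-fold, edgeR adjusted p = 0.0132). Of 20 kinases and factors that drive the early response, 1 rose and 3 fell at 50 µM and 3 rose and 1 fell at 100 µM, against 11.6% and 21% of all genes called in either direction. Without control replicate 2 or 3 or any single library at 50 µM, 0 of the ERK genes and 0 of the kinases fell at 50 µM. The counts were 3 and 6 without control replicate 1, 8 and 8 without 100 µM replicate 3 and 9 and 10 without both libraries that stood apart. Over all genes, the 810 lower at 50 µM became 1437, 2357 and 3721 (28.9%) in those fits, in that order. The 3 kinases higher at 100 µM became 0 without control replicate 2 or 3, and 6 without 100 µM replicate 3. Over all genes the 1370 higher became 622, 598 and 1966 in the same fits. MAPK3, which encodes the kinase ERK1, was 1.37-fold higher at 50 µM (edgeR adjusted p = 0.0478) and 1.46-fold higher at 100 µM (edgeR adjusted p = 0.0168). These calls were each lost without control replicate 2 or 3, with edgeR adjusted p of 0.187 and 0.187 for DUSP5 at 50 µM. At 50 µM, SPRED1 gave 0.0778 and 0.0731 and MAPK3 0.18 and 0.151 in those fits, and at 100 µM SPRED1 gave 0.0666 and 0.0574 and MAPK3 0.0707 and 0.061. Those at 50 µM were also lost without any single library of that dose (0.0574 to 0.181), DUSP5 without 100 µM replicate 1 (0.0573) or 2 (0.0549), and MAPK3 without 100 µM replicate 2 (0.0633). In the list of kinases 0 were called between the doses in either direction, with 4 higher and 1 lower at an unadjusted edgeR p under 0.05 and 1 and 1 in DESeq2. Without 100 µM replicate 3, 7 were higher and 2 lower there, and without both libraries that stood apart 9 and 2. Over all genes, 289 were higher and 243 lower between the doses with all libraries (2.25% and 1.89%). They became 1823 and 1738 without 100 µM replicate 3 and 3176 and 2929 (24.6% and 22.7%) without both.

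Among 14 tested leucine zipper partners of AP-1, 1 fell at 50 µM and 3 fell at 100 µM, DDIT3, NFE2L2 and MAFG, against 6.31% and 10.3% of all genes. The 1 at 50 µM became 0 without control replicate 2 or 3, any single library at 50 µM or 100 µM replicate 1 or 2. It became 3 without control replicate 1, 4 without 100 µM replicate 3 and 8 without both libraries that stood apart. Over all genes, the 810 lower became 1437, 2357 and 3721 (28.9%) in those fits, in that order. DDIT3, which encodes the stress factor CHOP and is also on the list of 14 stress genes beside ATF3, fell 1.54-fold at 100 µM, from 89.5 ± 11 to 58.2 ± 3.68 CPM (edgeR adjusted p = 0.00345), in the comparison in which ATF3 rose. The stress genes gave 2 lower at 50 µM, against 6.31% of all genes. That count was 0 without control replicate 2 or 3 or any single library at 50 µM. It was 1 without 100 µM replicate 1 or 2 and 4 without control replicate 1 or 100 µM replicate 3. At 100 µM 2 were higher and 2 lower, against 10.7% and 10.3% of all genes, and VLDLR, a lipoprotein receptor gene, rose 1.6-fold, to 25.9 ± 1.06 CPM against 16.2 ± 0.714 (edgeR adjusted p = 0.00119). The DDIT3 and VLDLR calls at 100 µM held in 19 of 19 other analyses, and those of NFE2L2 and MAFG were lost without 7 and 6 of the 9 libraries in turn, with edgeR adjusted p up to 0.152 and 0.146, each in a fit without 1 control. Between the doses 2 of the 14 stress genes were higher, against 2.25% of all genes. They were VLDLR (1.46-fold, edgeR adjusted p = 0.012) and PPP1R15A (1.54-fold, edgeR adjusted p = 0.0484). Both were lost without any single library at 50 µM (edgeR adjusted p of 0.0627 to 0.0854 and of 0.162 to 0.181). PPP1R15A was also lost without control replicate 2 (0.075) or 3 (0.0691) or 100 µM replicate 1 (0.122) or 2 (0.138). Of 12 corepressors of EGR1 and regulators of AP-1, 1 rose and 0 fell at 50 µM (0 lower in DESeq2 and at an unadjusted edgeR p under 0.05). Over all genes 5.28% rose and 6.31% fell. The 1 higher became 0 without control replicate 2 or 3 or any single library at 50 µM.

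The genes whose pattern was most like each of the 10 were found by Pearson's r of log2 CPM over the 9 samples, among 10460 other genes. The 9 points share 3 groups and 2 libraries that stood apart, so high values are common and are given as a description. For FOS they were EFNA3 (0.98) and CREBRF (0.974), for FOSL1 WSB2 (0.995) and MYEOV (0.993), and for FOSL2 RHPN2 (0.983) and LACTB (0.974). JUN was most like PEA15 (0.989) and GALNS (0.989), JUNB most like DDIT4 (0.995) and NBR1 (0.994), and JUND most like SAPCD2 (0.981) and LSS (0.975). For EGR1 they were AKAP10 (0.968) and SNAI1 (0.953), for ATF3 VASN (0.988) and CYTH3 (0.976), for KLF6 SLC2A1 (0.994) and SERPINE2 (0.993), and for IER3 SHC1 (0.963) and AXL (0.95).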

How the data were processed

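Messenger RNA of 9 HCCLM3 samples, 3 per group, was bound to oligo(dT) beads and the libraries were treated with duplex-specific nuclease, per the labels' protocols, which can lower abundant transcripts. The authors deposited expected counts, estimated read numbers per gene with no normalisation, of which 26.8% were whole within 1e-06, and also FPKM and TPM per library. The authors also deposited log2 fold changes with q-values and p-values from their comparisons of the groups, made with DESeq2 per the file headers. HISAT2 2.0.4, Bowtie2 2.2.5, RSEM 1.2.12 and the build GRCh38.p13 are named in the submitters' processing notes, with no roles. Another 9 columns of normalised read counts per sample were not used.

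Expected counts were rounded to whole numbers and scaled by TMM. Genes were kept by filterByExpr (minimum count 10, minimum total 15, share 0.7), and 4660 were removed. All 9 libraries entered 1 fit with a term per group, tested by edgeR's two-sided quasi-likelihood F test with Benjamini-Hochberg adjustment over all genes (edgeR 4.0.16, limma 3.58.1, DESeq2 1.42.0, R 4.3.3). The common dispersion was 0.0206. Standard errors were obtained by dividing the size of a log2 fold change by the root of its F value. A change counts as a rise or fall at an adjusted p under 0.05. The scripts were tested on simulated data.

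The other 19 analyses were DESeq2, DESeq2 size factors in edgeR, upper quartile scaling, no filter, the compared groups alone, the replicate number as a block, each of the 9 libraries left out, both libraries that stood apart left out, and limma on log2(TPM + 1), log2(TPM + 0.1) and log2(FPKM + 1). From each list the rule named up to 3 called genes per comparison with the largest change and a mean of at least 5 CPM, and for each of the 10 genes the 2 most alike. The text shows some of those named, and results of some genes are not reported here. The genes and lists were chosen with earlier results of these data known.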

Additional observations from a re-analysis of the deposited data

How the results depend on the processing

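JUND at both doses and IER3 at 50 µM kept their direction and call in all 19 other analyses. Counts of the 10 genes called were less stable. At 50 µM the 1 higher became 2 with the compared groups alone, 3 with both libraries that stood apart left out and 1 to 2 with a single library left out, and the 2 lower became 4 and 1 to 3 in the last pair of settings. At 100 µM the 5 higher became 2 with no filter, 1 with the compared groups alone, 1 with the replicate block, 1 on either TPM scale, 2 on FPKM and 2 to 5 without single libraries. The 1 lower became 0 with the compared groups alone and 0 to 1 without single libraries. Between the doses the 2 higher became 4 in DESeq2, 1 with no filter, with the replicate block and in each limma analysis, 7 with both libraries left out and 0 to 5 without single libraries.

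Over all genes at 50 µM, 678 higher and 810 lower became 1190 and 1341 in DESeq2, 1996 and 2273 with the compared groups alone, 199 and 228 with the replicate block, 3677 and 3721 with both libraries left out, and 47 to 2382 and 43 to 2357 without single libraries, and the higher count was 438 and 448 on the TPM scales. At 100 µM, 1370 and 1322 became 587 and 437 with the compared groups alone, 893 and 779 with the block, 3125 and 3147 with both libraries left out, and 598 to 1966 and 457 to 1890 without single libraries, and on log2(TPM + 1) the split moved to 975 and 1622. Between the doses, 289 and 243 became 670 and 682 in DESeq2, 180 and 71 with the compared groups alone, 81 and 28 with the block, 3176 and 2929 with both left out, and 31 to 1823 and 12 to 1738 without single libraries, with a split of 248 and 380 on FPKM.

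Signs turned only for log2 fold changes near 0 or resting on the libraries that stood apart. At 50 µM FOS ran from −0.025 to 0.39 without single libraries, FOSL2 from −0.10 to 0.12, with −0.11 without both libraries and −0.0039 and −0.0036 on the TPM scales, and JUN from −0.16 to 0.030. ATF3 at 50 µM ran from −0.20 to 0.17, with 0.037 under upper quartile scaling, 0.0021 with the replicate block and 0.036 on FPKM. At 100 µM EGR1 ran from −0.018 to 0.13, with −0.075 without both libraries, and IER3 from −0.053 to 0.034, with 0.012 under upper quartile scaling. Between the doses JUNB ran from −0.087 to 0.66, with −0.077 without both libraries. JUND there ran from −0.16 to 0.15, with −0.0035 under upper quartile scaling, −0.00017 with no filter, −0.011 with the block, −0.026 and −0.027 on the TPM scales and −0.047 on FPKM. The cause of these shifts was not tested. The labels do not say that replicate numbers pair samples: same-numbered samples correlated by −0.464 to 0.276 over 9 pairs, and 0 of 9 samples correlated best with their own number. FOS had few counts, at 3.56 to 17.8 CPM, which limits its precision.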
